A study of Homo sapiens with 8 samples.

Results

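The 44 genes described here are interferon-stimulated genes, the set of genes that cells switch on when they sense interferon, together with a few of the factors that carry the signal. They were chosen by name, from GENCODE v44, out of 62639 genes in the count table, and all 44 were found there. The list includes MOV10, an RNA helicase that restricts retroviruses and mobile elements. Of the 10 members whose transcripts could be tested, MOV10 was the only one with a transcript that passed the edgeR test described below. MOV10 was listed with its exon switch in these data already known. RNA was read by long-read nanopore cDNA sequencing in MOLM-13, a human acute myeloid leukemia cell line of monocytic kind. One arm, shPTBP1, carried a doxycycline (dox) inducible short hairpin RNA against PTBP1, a protein that binds pyrimidine-rich RNA and usually keeps nearby exons out of the mRNA. The other arm, shControl, carried an inducible scrambled hairpin, and both arms received dox for 9 days. Each arm had 4 libraries, given by their labels as biological replicates. A single PTBP1 hairpin was compared with a single scrambled hairpin, so PTBP1 knockdown (KD) and any other difference between these lines cannot be told apart. The labels name no interferon treatment in either arm.

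Interferons of type I bind a receptor made of IFNAR1 and IFNAR2, which activates the kinases JAK1 and TYK2. The kinases phosphorylate STAT2, which joins IRF9 in a complex that binds the interferon-stimulated response element, a short DNA motif in the promoters of many of the genes listed here. The products block virus entry, degrade or mark foreign RNA, edit RNA, tag proteins with ISG15 and build nuclear bodies. Many leukemia lines hold a low basal level of this program.

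Total counts ran from 1528449 to 1613342 per library, so the libraries were of nearly equal depth. PTBP1 itself had 6.33, 9.91, 8.56 and 14.7 CPM (counts scaled to a common library size with edgeR's normalization) in the 4 shPTBP1 libraries. It had 39.9, 57.3, 42.7 and 50.05 CPM in the 4 shControl libraries, and the arms did not overlap. The log2 fold change was -2.26 (edgeR quasi-likelihood adjusted p = 7.18e-05, SE 0.22, n = 4 and 4). All 11 of the myeloid leukemia markers listed had at least 1 count, although SPI1, a myeloid transcription factor, and CD14, a surface marker of monocytes, each had 1 count in all libraries together. The summed level of those markers was 1060 to 1216 CPM in shPTBP1 and 885 to 1012 CPM in shControl. CD68, a lysosomal protein of macrophages, rose (log2 fold change 0.36, edgeR adjusted p = 0.0194), and CSF1R, the receptor of a macrophage growth factor, fell by 0.97 on the log2 scale (edgeR adjusted p = 0.0375). The part of these markers in the results below was not tested. The 3 T cell markers had no counts, and the B cell, red cell and epithelial lists each summed to no more than 2.64 CPM in any library, and the fibroblast list to 8.98 to 14.5 CPM.

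Promoter sequence showed which of the genes carry the response element. The motif searched was GAAANNGAAA on both strands, where N is any base, in the RefSeq promoter windows of GRCh38.p14 that run from 250 bases before to 50 after a start. Of the 44 genes, 34 were in the RefSeq table, and 20 of these (58.8%) held the motif in at least 1 promoter, against 4.38% of the 27305 genes in the table. Windows are shown for some of the members with a match. Those of BST2, IFIT3, HERC5, SAMD9, IFI27 and IFI44, among others, are not shown, although these genes held a match too. The following 30-base windows run 5′ to 3′ along the gene, with the motif in capitals and ISG15 as a classical example.
IFITM3: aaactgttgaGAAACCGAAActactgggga
IFITM1: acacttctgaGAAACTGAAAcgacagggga
IFI6: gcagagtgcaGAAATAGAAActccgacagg
ISG15: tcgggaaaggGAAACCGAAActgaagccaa
TRIM14: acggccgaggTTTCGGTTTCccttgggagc
DTX3L: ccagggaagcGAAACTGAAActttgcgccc
PARP9: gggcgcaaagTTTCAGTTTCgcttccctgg
They lie at chr11:320876-320905 (IFITM3, minus strand), chr11:314024-314053 (IFITM1, plus), chr1:27672266-27672295 (IFI6, minus), chr1:1013380-1013409 (ISG15, plus) and chr9:98119229-98119258 (TRIM14, minus). The DTX3L and PARP9 windows are the same 30 bases, chr3:122564322-122564351, read in opposite directions, since these genes start head to head. The match shown is the one furthest downstream in the promoter. It began 35 bases before the start in IFITM3, 6 bases in IFITM1, 93 bases in IFI6 and 107 bases in ISG15. The promoters of IFITM3, IFITM1 and ISG15 held 2 matches each, and that of IFI6 held 3. STAT2, OAS1 and MOV10 had no match in their windows. The median log2 fold change was 0.09 over the 12 tested genes with the motif and 0.03 over the 13 tested genes without it.

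Gene levels were compared by edgeR's quasi-likelihood test over 7597 genes, with Benjamini-Hochberg adjusted p under 0.05 as the threshold. Of the 44 interferon-stimulated genes, 32 had enough counts to be tested. No member rose and 2 fell, IFITM3 and STAT2, where 2.36% of all genes tested rose and 3.19% fell. DESeq2 and limma-trend also found no member higher, and at an unadjusted p under 0.05 there was 1 member higher (ZC3HAV1) and 6 lower, 7 of 32 in all against 19.2% of all genes. The arms did not overlap in 4 members, all lower in shPTBP1, where 6.37% of all genes lay apart in that direction, 6.32% in the other and 12.7% in either. Over the 32 tested members 15 had a positive and 17 a negative log2 fold change, with a median of -0.044 against -0.00014 over all genes tested. The range ran from -0.92 (OAS1) to 0.50 (IFI44). The summed level of all 44 genes was 1884 to 2022 CPM in the shPTBP1 libraries and 2018 to 2194 CPM in the shControl libraries, and these ranges overlapped only through replicate 2 of each arm. Without TRIM14, described below, the shControl range was 2018 to 2124 CPM. The sum is weighted toward highly counted genes, and IFITM3 alone had a mean of 226 CPM in shPTBP1 against 327 CPM in shControl.

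**Figure D1:**
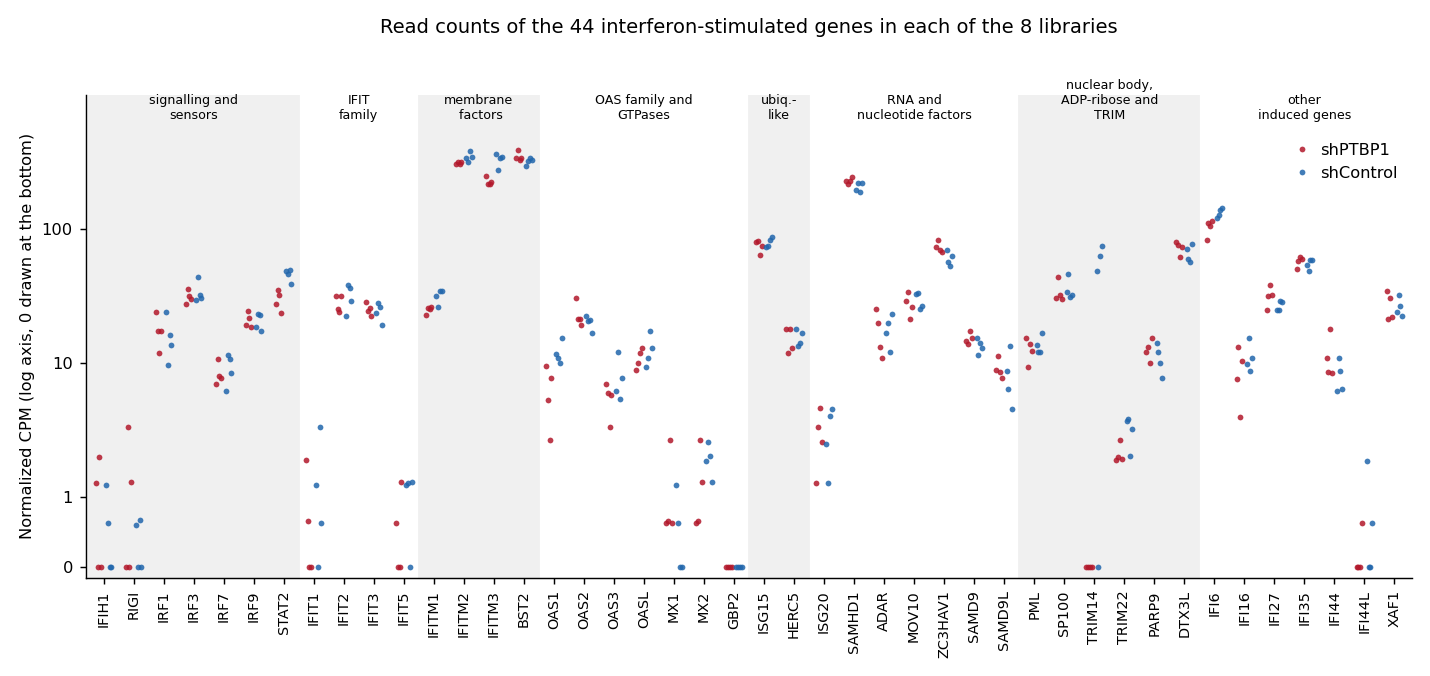
Each point is 1 library, with normalized CPM on a log axis (0 drawn at the bottom) for the 44 genes grouped by role. Points of shPTBP1 (red) and shControl (blue) overlap for most genes, lie apart for IFITM3, STAT2, IFI6 and OAS1, and for TRIM14 are all at 0 in shPTBP1 and at 0 in 1 of the 4 shControl libraries. Heights are meant for comparing arms within a gene and are not to be compared between genes.

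The membrane factors held the clearest difference. IFITM3, which sits in endosomes and stops enveloped viruses from fusing, had 247, 216, 216 and 224 CPM in the shPTBP1 libraries. It had 358, 274, 334 and 343 CPM in the shControl libraries. Every shPTBP1 library was below every shControl library, and the mean was 226 ± 14.5 CPM (SD, n = 4) against 327 ± 36.8 CPM (SD, n = 4). The log2 fold change was -0.53 (edgeR adjusted p = 0.00328, SE 0.09), and the call held in all 8 fits that left out 1 library and in DESeq2 (adjusted p = 2.05e-05). IFITM3 (ENSG00000142089.17) lies at chr11:319676-329475 beside IFITM2 and IFITM1, near-identical genes that share long stretches of sequence, so reads may have been divided between them. IFITM2 had 308 ± 7.53 CPM in shPTBP1 and 344 ± 27.7 CPM in shControl (SD, n = 4), a log2 fold change of -0.16 that did not pass (edgeR adjusted p = 0.225). Counted as 1 gene, a choice made after seeing the data, IFITM2 and IFITM3 had 534 ± 13.1 CPM against 671 ± 57.0 CPM, with a log2 fold change of -0.33 (edgeR adjusted p = 0.0134, SE 0.07). IFITM1, the member of this family at the cell surface, had 25.0 ± 1.54 CPM against 31.4 ± 3.73 CPM, and its log2 fold change of -0.33 did not pass (edgeR adjusted p = 0.246). BST2, or tetherin, which holds budding virus at the cell surface, had 344 ± 27.9 CPM against 319 ± 19.0 CPM and did not pass (log2 fold change 0.11, edgeR adjusted p = 0.460).

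Among the signalling factors, 5 of 7 were tested and STAT2 fell. STAT2 (ENSG00000170581.15, chr12:56341597-56360203), which is needed for the response to type I interferon, had 27.2, 35.0, 32.3 and 23.7 CPM in shPTBP1. In shControl it had 47.9, 45.8, 49.3 and 38.5 CPM. The arms did not overlap, with means of 29.5 ± 5.07 and 45.4 ± 4.82 CPM (SD, n = 4), and the log2 fold change was -0.62 (edgeR adjusted p = 0.0273, SE 0.15). The call was less firm than that of IFITM3. STAT2 stayed below the threshold without shPTBP1 replicate 2 or without shControl replicate 4, and missed it when any 1 of the other 6 libraries was left out (edgeR adjusted p from 0.0333 to 0.0790 over the 8 fits) and in DESeq2 (adjusted p = 0.0674). IRF3, the factor that switches on interferon genes after virus sensing, had 31.1 ± 3.53 CPM against 33.7 ± 6.46 CPM (log2 fold change -0.12, edgeR adjusted p = 0.757). IRF9, the partner of STAT2, had 20.9 ± 2.73 CPM against 20.3 ± 2.88 CPM. IRF1 and IRF7 overlapped between arms, at 9.55 to 24.0 CPM and 6.14 to 11.5 CPM over the 8 libraries. The RNA sensors RIGI and IFIH1 were too low to test, with no more than 3.30 and 1.98 CPM in any library.

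**Figure D2:**
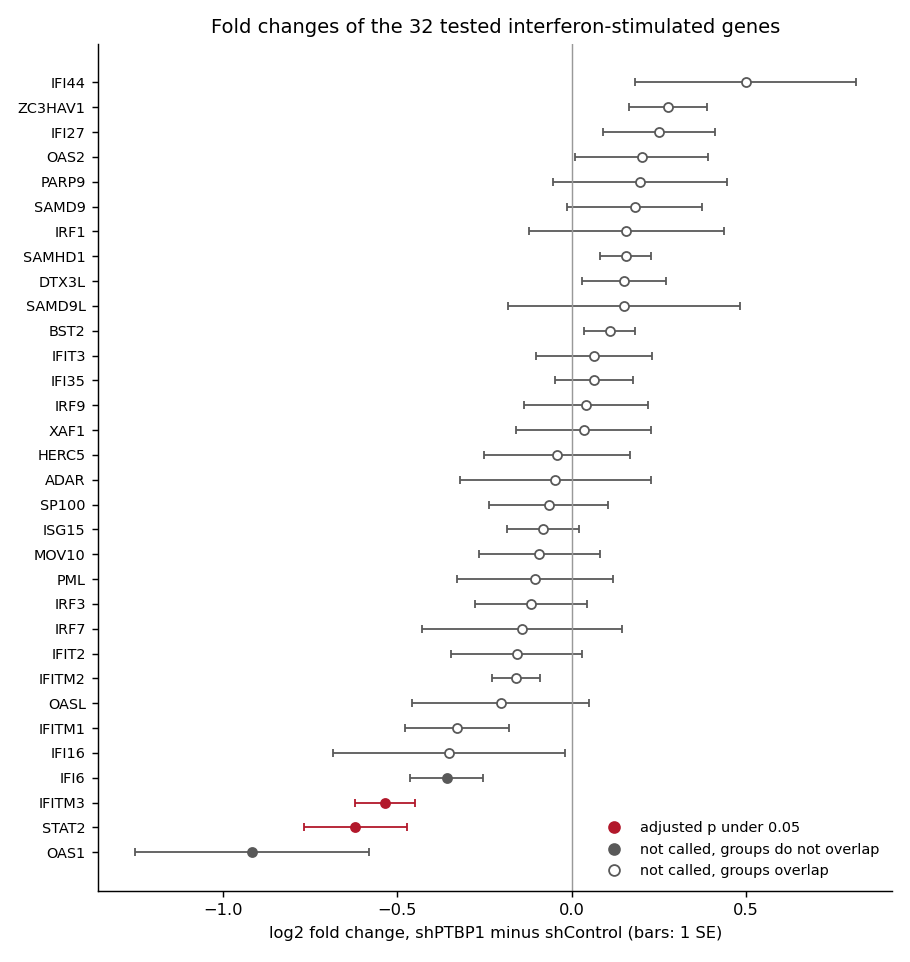
Log2 fold change of shPTBP1 minus shControl for the 32 tested genes, with bars of 1 SE, ordered by value. IFITM3 (-0.53) and STAT2 (-0.62) passed the threshold, IFI6 (-0.36) and OAS1 (-0.92) did not pass although their arms did not overlap, and the other genes lie on both sides of 0.

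In the OAS family, whose enzymes make the messenger that activates RNase L, OAS1 had the lowest log2 fold change of the 32 tested members. It had 9.49, 5.29, 2.63 and 7.68 CPM in shPTBP1 and 11.7, 10.8, 10.003 and 15.4 CPM in shControl, so the arms did not overlap. Its log2 fold change of -0.92 (SE 0.34) did not pass (edgeR adjusted p = 0.144), and the lowest library rested on 4 counts. OAS2 had 22.9 ± 5.03 CPM against 19.96 ± 2.32 CPM, and OASL had 10.9 ± 1.80 CPM against 12.6 ± 3.52 CPM. Both overlapped between arms, with log2 fold changes of 0.20 for OAS2 (edgeR adjusted p = 0.628) and -0.20 for OASL. OAS3 was too low to test. The dynamin-like GTPases MX1 and MX2, among the strongest responders to interferon in most cells, stayed at 2.63 CPM or below in every library. GBP2, a GTPase induced mainly by interferon gamma, had no counts in any of the 8 libraries, which allows up to 2.00 CPM in the shallowest on counting error alone. Of the IFIT genes, whose products bind foreign 5′ ends of RNA, IFIT2 had 28.0 ± 4.14 CPM against 31.3 ± 7.30 CPM (log2 fold change -0.16, edgeR adjusted p = 0.711). IFIT3 had 25.2 ± 2.53 CPM against 24.2 ± 3.79 CPM (log2 fold change 0.06, edgeR adjusted p = 0.886). IFIT1 and IFIT5, their neighbours in the chromosome 10 cluster, were too low to test.

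The ubiquitin-like modifier ISG15 and the ligase HERC5, which joins ISG15 to new proteins, overlapped between arms. ISG15 had 79.7, 80.6, 63.9 and 74.3 CPM in shPTBP1 and 73.1, 74.5, 82.0 and 86.6 CPM in shControl (log2 fold change -0.08, SE 0.10, edgeR adjusted p = 0.729). HERC5 had 15.0 ± 3.14 CPM against 15.5 ± 2.13 CPM (edgeR adjusted p = 0.945).

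Of the factors that act on RNA and nucleotides, 6 of 7 were tested and none passed. SAMHD1, which destroys the building blocks of DNA and so starves retroviruses, had 228 ± 10.5 CPM against 204 ± 15.9 CPM (log2 fold change 0.16, edgeR adjusted p = 0.271). ZC3HAV1, or ZAP, which binds viral RNA rich in CG pairs, had 73.4, 82.6, 69.8 and 66.6 CPM in shPTBP1 and 68.8, 56.7, 52.7 and 62.9 CPM in shControl. The highest shControl library exceeded the lowest shPTBP1 library, and the log2 fold change of 0.28 (SE 0.11) did not pass (edgeR adjusted p = 0.195). ADAR, the enzyme that edits adenosine in double-stranded RNA, had 17.3 ± 6.55 CPM against 17.9 ± 4.72 CPM. SAMD9 and SAMD9L, paired antiviral factors also known as myeloid tumour suppressors, had 11.5 to 17.1 CPM and 4.49 to 13.3 CPM over the 8 libraries. MOV10 (ENSG00000155363.19, chr1:112673141-112700756) had 29.1, 33.7, 21.1 and 26.3 CPM in shPTBP1 and 32.6, 33.1, 25.3 and 26.3 CPM in shControl. Its total level thus overlapped between arms, with a log2 fold change of -0.09 (edgeR adjusted p = 0.832, SE 0.17).

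In the group of nuclear body, ADP-ribose and TRIM genes, 4 of 6 were tested and none passed. SP100 and PML, which build PML nuclear bodies, had 34.1 ± 6.42 CPM against 35.6 ± 6.95 CPM and 12.6 ± 2.56 CPM against 13.6 ± 2.18 CPM. DTX3L and PARP9, a ligase and its ADP-ribosyltransferase partner that share the promoter shown above, had 72.6 ± 7.68 CPM against 65.4 ± 9.45 CPM and 12.6 ± 2.29 CPM against 10.98 ± 2.76 CPM. Both had a positive log2 fold change, 0.15 (edgeR adjusted p = 0.553) and 0.20 (edgeR adjusted p = 0.735). TRIM14, an adaptor in the RNA sensing pathway, behaved unlike the others. It had no counts in any shPTBP1 library and 79, 0, 93 and 115 counts in the 4 shControl libraries, all on the transcript TRIM14-201. The 0 in shControl replicate 2 means that the arms met at 0, so TRIM14 was left out by the filter on low counts, and no fold is given. Without that filter edgeR called it lower (adjusted p = 6.32e-08), as did DESeq2 (adjusted p = 0.0223). Such a jump between 0 and at least 50 counts within 1 arm was found for 33 genes in shControl and 23 in shPTBP1, of 4212 and 4072 genes with at least 50 counts in a library of that arm, and TRIM14 was the only member among them. TRIM22 had 3.82 CPM or less and was too low to test.

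Of the other induced genes, IFI6 came closest to the threshold. IFI6 (ENSG00000126709.16), a small membrane protein that delays cell death, had 82.9, 110, 105 and 114 CPM in shPTBP1 and 119, 125, 139 and 144 CPM in shControl. The arms did not overlap, and the log2 fold change of -0.36 (SE 0.10) missed the threshold (edgeR adjusted p = 0.0676). It passed with the genes limited to a mean of at least 50 counts (adjusted p = 0.0360) and in limma-trend (adjusted p = 0.0344), and missed it in DESeq2 (adjusted p = 0.115). IFI35, a leucine zipper protein, had 57.2 ± 5.15 CPM against 54.7 ± 4.86 CPM (edgeR adjusted p = 0.818). XAF1, which opposes the caspase inhibitor XIAP, had 26.8 ± 6.42 CPM against 26.2 ± 4.12 CPM (edgeR adjusted p = 0.953). IFI27, a mitochondrial protein often used to read interferon activity in blood, had 24.7, 31.7, 38.2 and 32.01 CPM in shPTBP1 and 24.6, 24.8, 28.7 and 28.2 CPM in shControl (log2 fold change 0.25, edgeR adjusted p = 0.432). IFI44 had the highest log2 fold change of the 32 tested members, 0.50, with an SE of 0.32 and overlapping arms (edgeR adjusted p = 0.429). IFI16, a DNA sensor, had 3.95 to 15.3 CPM over the 8 libraries, and IFI44L was too low to test.

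A further 62 genes of interferon production and signalling that are not members were listed, of which 34 could be tested. Of these, 1 rose and 1 fell, where 5.54% of all genes tested were called in either direction. IFNAR2, the chain of the type I receptor that binds interferon most tightly, had 12.7, 9.91, 18.4 and 23.7 CPM in shPTBP1 and 32.6, 34.4, 30.0 and 33.4 CPM in shControl. The arms did not overlap, and IFNAR2 fell by 1.01 on the log2 scale (edgeR adjusted p = 0.0197, SE 0.22). This call held in 4 of the 8 fits that left out 1 library and was lost without shPTBP1 replicate 1, 2 or 3 or shControl replicate 4 (edgeR adjusted p from 0.0077 to 0.0560 over the 8 fits). PTPN6, or SHP-1, a phosphatase that dampens cytokine signalling in blood cells, had 227 ± 15.2 CPM against 184 ± 8.64 CPM and rose by 0.30 on the log2 scale (edgeR adjusted p = 0.0283, SE 0.07). It was called in 2 of those 8 fits (edgeR adjusted p from 0.0437 to 0.0938), those without replicate 4 of either arm, and not in limma-trend (adjusted p = 0.0537). UBA7, the enzyme that activates ISG15, had 55.4 ± 5.004 CPM against 69.1 ± 3.23 CPM. Its arms did not overlap, and it did not pass (edgeR adjusted p = 0.0902). IFNGR1 lay apart in the other direction, at 291 ± 5.73 CPM in shPTBP1 against 279 ± 4.73 CPM in shControl (edgeR adjusted p = 0.633). UBA7 and IFNGR1 were named after their values were seen, and the arms did not overlap in 12.7% of all genes tested. Of the 62 genes 14 had no counts, IFNA1, IFNA2 and IFNG among them, and IFNB1 had 6 counts over all 8 libraries. The median log2 fold change of the 34 tested genes was -0.12.

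Transcript forms were compared as shares of each gene's counts. Transcripts were called where the edgeR diffSpliceDGE adjusted p was under 0.05 and the mean share changed by at least 10 points. Of 23 transcripts of 10 members that could be tested, 1 was called, MOV10-202, where 1.12% of the 5464 transcripts tested were called. Since the MOV10 switch was known when the list was made, its call and the p-values below describe a known change and are no independent test. The shares of 6 of the 23 did not overlap between arms, 3 of MOV10, IFI27-211, IFI27-213 and IFITM1-202, against 10.7% of all transcripts tested. These 6 belong to 3 genes, and shares within a gene depend on each other, so they do not count as separate changes.

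MOV10 is annotated with several full-length transcripts that differ at their 5′ end. MOV10-202 (ENST00000369644.5) has 22 exons. Its exon 3, chr1:112686966-112687106, of 141 bases, lies inside an intron of the other main forms and is annotated as 5′ UTR. Its exon 4 begins 607 bases further upstream than the corresponding exon of MOV10-203, and is 811 bases long (chr1:112688328-112689138) against 204 bases (chr1:112688935-112689138). The annotated coding sequence of MOV10-202 starts within this exon, at position 112688966, and has 947 codons. MOV10-201, MOV10-203 and MOV10-204 start at position 112674913 and have 1003 codons, so the annotated product of MOV10-202 lacks the first 56 codons. Every counted transcript with the 141-base exon also had the longer exon 4, and no counts fell on a transcript with only 1 of these features, so the exon and the longer exon 4 cannot be told apart here.

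**Figure D3:**
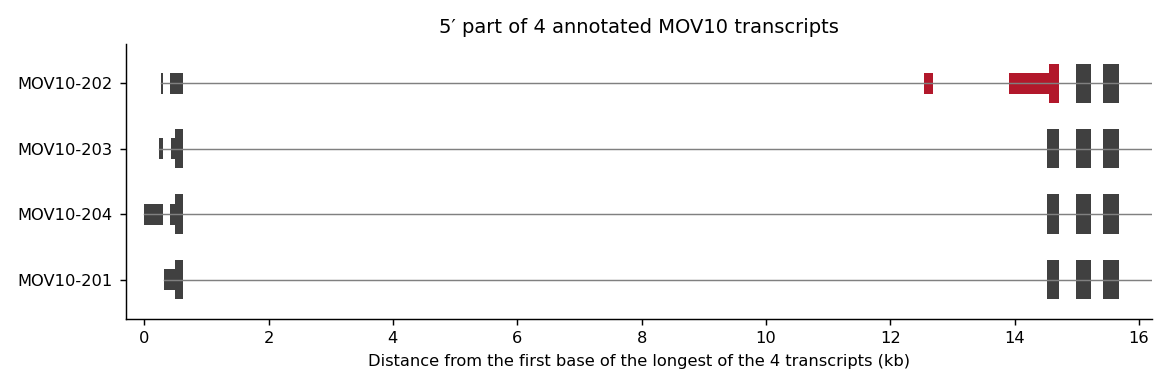
The 5′ part of 4 annotated MOV10 transcripts, with distance from the first base in kb on the horizontal axis, thin boxes for untranslated and tall boxes for coding exon sequence. Red marks the exon of 141 bases and the longer next exon of 811 bases, drawn in MOV10-202 and absent from MOV10-201, MOV10-203 and MOV10-204.

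Counted over the transcripts that span it, the exon was in 22 of 45, 30 of 51, 15 of 32 and 24 of 40 MOV10 counts in the 4 shPTBP1 libraries. These shares were 48.9%, 58.8%, 46.9% and 60.0%. In the shControl libraries it was in 7 of 53, 5 of 50, 2 of 38 and 4 of 41 counts, or 13.2%, 10%, 5.26% and 9.76%. The lowest Wilson 95% bound among the shPTBP1 libraries was 30.9% and the highest among the shControl libraries was 24.8%, so the arms stood apart beyond counting error in each library. The mean share was 53.6% ± 6.72 against 9.56% ± 3.27 (SD, n = 4), a difference of 44.1 points. A two-sided exact permutation test gave p = 0.0286, the smallest that 4 against 4 libraries can give.

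As levels, MOV10 transcripts with the exon had 13.9, 19.8, 9.87 and 15.4 CPM in shPTBP1 and 4.30, 3.18, 1.33 and 2.57 CPM in shControl, a 5.18-fold higher mean. Transcripts without it had 14.6, 13.9, 11.2 and 10.2 CPM in shPTBP1 and 28.3, 28.7, 24.0 and 23.7 CPM in shControl, 2.10-fold higher in shControl. Both differences gave p = 0.0286 in the exact permutation test. The forms with and without the exon thus moved in opposite directions, while the total differed between arms by less than its error (log2 fold change -0.09, SE 0.17). Of the single transcripts, MOV10-202 differed by 40.1 points (edgeR diffSpliceDGE adjusted p = 1.67e-06). MOV10-203 held 17.9% ± 6.83 against 39.2% ± 9.64 of the counts, and MOV10-204 held 17.3% ± 7.80 against 38.6% ± 4.76 (SD, n = 4). Their arms did not overlap, but neither passed the threshold (edgeR diffSpliceDGE adjusted p = 0.108 and 0.103). MOV10-201 held 4.85% ± 1.01 against 9.39% ± 3.78, with overlapping arms.

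**Figure D4:**
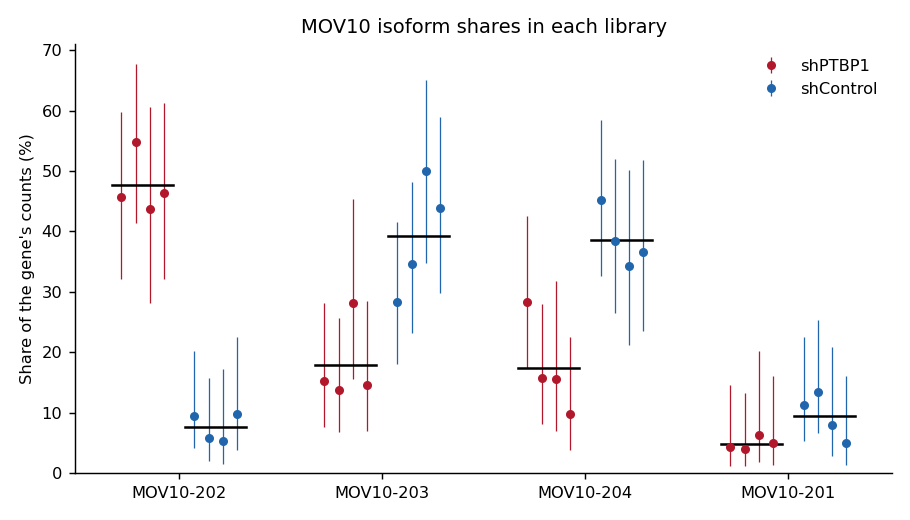
Share of MOV10 counts in percent on 4 transcripts, with 1 point per library, Wilson 95% intervals as thin bars and group means as black lines. MOV10-202 lies between 43.8% and 54.9% in shPTBP1 and between 5.26% and 9.76% in shControl, and MOV10-203 and MOV10-204 lie lower in shPTBP1.

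The intron sequence before these splice sites is shown because PTBP1 is known to bind pyrimidine-rich RNA, with TCTT among its preferred motifs. The 100 bases of intron that end at each site were read from hg38 on the transcribed strand, and no annotated MOV10 transcript has an exon there. The first ends at the 141-base exon (chr1:112686866-112686965, plus strand) and the second at the longer exon 4 (chr1:112688228-112688327, plus strand), with TCTT in capitals.
MOV10 exon 3 intron: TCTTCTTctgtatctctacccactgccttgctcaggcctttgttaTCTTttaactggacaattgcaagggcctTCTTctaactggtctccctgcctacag
MOV10 longer exon 4 intron: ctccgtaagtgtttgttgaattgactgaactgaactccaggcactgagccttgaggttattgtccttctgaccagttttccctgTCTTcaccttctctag
The first window held 4 TCTT motifs, 2 of them overlapping, and as many or more were found in 2.75% of 200842 such windows before the exons of protein-coding transcripts. The second held 1, and 61.9% of all windows held 1 or more. CTCTCT and TTCTTC were searched as well. CTCTCT had 0 matches in both windows, and 9.22% of all windows held 1 or more. TTCTTC, which contains TCTT, had 2 matches in the first window and 0 in the second. As many as 2 or more were found in 0.756% of all windows. Pyrimidines made up 68% of the first window and 62% of the second, shares reached by 5.71% and 20.1% of all windows. A motif match is a description of the sequence, and PTBP1 binding data were not analysed here.

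IFI27 was the other member with more than 1 tested transcript whose shares lay apart between arms. IFI27-211 held 35.9%, 31.2%, 27.6% and 26.0% of IFI27 counts in shPTBP1 and 12.5%, 17.9%, 11.6% and 15.9% in shControl. IFI27-213 held 59.0%, 64.6%, 65.5% and 72.0% in shPTBP1 and 80.0%, 79.5%, 81.4% and 77.3% in shControl. The shares of both transcripts did not overlap between arms, yet neither passed the edgeR diffSpliceDGE threshold (adjusted p = 0.356 for IFI27-211), while limma diffSplice called both (adjusted p = 0.0352). As levels, IFI27-211 had 9.41 ± 1.00 CPM against 3.84 ± 0.74 CPM (2.45-fold, exact permutation p = 0.0286), and IFI27-213 had 20.8 ± 4.55 CPM against 21.1 ± 1.77 CPM (exact permutation p = 0.943). IFI27-211 lacks the second exon of IFI27-213, chr14:94111625-94111773, of 149 bases, which holds the annotated start codon at position 94111683. The annotated coding sequence of IFI27-211 starts further on, at position 94115789, with 79 codons against 122.

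**Figure D5:**
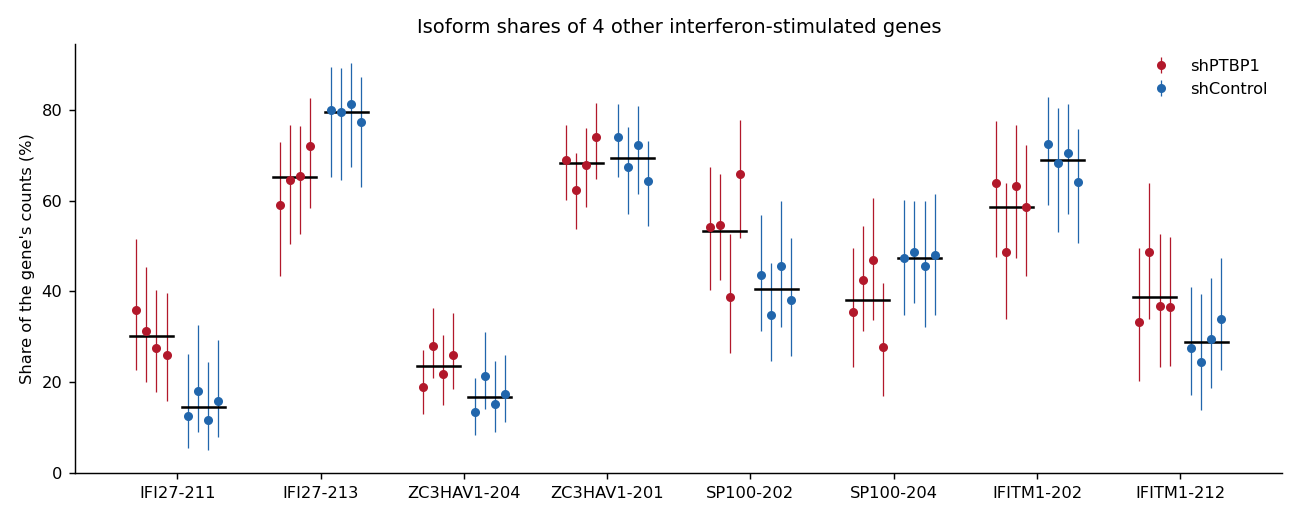
Share of each gene's counts in percent on paired transcripts of IFI27, ZC3HAV1, SP100 and IFITM1, with 1 point per library, Wilson 95% intervals as thin bars and group means as black lines. IFI27-211 averages 30.2% in shPTBP1 and 14.5% in shControl with no overlap of points, while the points of ZC3HAV1 and SP100 overlap between arms.

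The remaining shares overlapped between arms, did not pass, or were too thinly counted to test. Among the last, PARP9-208 held 54.7% ± 7.46 against 74.1% ± 10.6 of PARP9 counts (exact permutation p = 0.0571) and PARP9-202 held 37.5% ± 6.19 against 20.2% ± 14.7 (exact permutation p = 0.0857), both overlapping. ZC3HAV1-204, the short form of ZAP with 699 codons, which lacks the part encoding the PARP-like domain of the long form, held 23.7% ± 4.08 against 16.8% ± 3.42 of ZC3HAV1 counts (SD, n = 4) with overlapping arms. Its level was 17.4 ± 4.08 CPM against 10.1 ± 1.81 CPM (1.73-fold, exact permutation p = 0.0286), and the long form ZC3HAV1-201 had 49.7 ± 1.79 CPM against 41.9 ± 6.16 CPM (exact permutation p = 0.114). SP100-202, with 29 exons, held 53.4% ± 11.2 against 40.5% ± 5.03, and SP100-204, with 15 exons, 38.1% ± 8.43 against 47.4% ± 1.28, both overlapping. IFITM1-202 held 58.6% ± 6.99 against 68.9% ± 3.61 with no overlap and an edgeR diffSpliceDGE adjusted p of 1.00. IFI6-202 held 86.3% against 84.4%, SAMHD1-221 held 83.2% against 85.6%, IRF3-203 held 73.8% against 74.6%, ADAR-201 held 35.1% against 38.3% and IRF7-206 held 73.2% against 62.3% on average, all overlapping. Among transcripts not tested for want of counts, PML-203 held 7.71% ± 4.55 against 24.5% ± 12.1 and OAS2-203 held 23.2% ± 2.37 against 14.7% ± 3.54, with no overlap in either and an exact permutation p of 0.0286 in both, named after their values were seen. Shares of OAS1, IFI16, ISG20 and TRIM14 are not given because at least 1 library had fewer than 10 counts. Counts on member transcripts that are not annotated as protein-coding made up 3.33% to 4.07% in shPTBP1 and 2.49% to 3.44% in shControl (exact permutation p = 0.0571), and over all genes 10.2% to 11.1% and 9.54% to 10.5% (exact permutation p = 0.0571).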

How the data were processed

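Per the labels, total RNA of 4 shPTBP1 and 4 shControl MOLM-13 cultures was extracted and nanopore cDNA libraries were made after 9 days of dox. The deposited counts are counts per transcript that the authors made by aligning reads to hg38 with minimap2 and counting with StringTie. They were used here as whole numbers. Versions and the annotation are not given in the sources used here. A read that fits several forms of a gene is assigned by that software, so shares of forms and their Wilson intervals depend on it. Read length was not examined, so a share rests on counts assigned to transcripts, not on reads seen to cross an exon. A second deposited table, of scaled values, was not used. Of 254070 transcripts, 252562 were found in GENCODE v44, and counts were summed per gene.

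Members and lists were chosen with earlier results of these data known, the MOV10 exon switch among them. Genes were filtered with filterByExpr (minimum count 10), TMM-normalized and tested with edgeR 4.0.16 in R 4.3.3, and transcripts with diffSpliceDGE, with Benjamini-Hochberg adjustment over all features tested. The edgeR gene test and the diffSpliceDGE test were tried on simulated data, and the alternatives and other steps were not. Alternatives used DESeq2 1.42.0 and limma 3.58.1. For a share or level of a transcript, a two-sided exact permutation test over libraries was used, and intervals are Wilson 95% intervals that cover counting error only. Besides PTBP1, the members named were MOV10, called or non-overlapping members, the 2 most counted of each role, and the largest and smallest p-values among members that were tested and not called. Other names, such as IFI44 and IFI27, were added after their values were seen. The labels call the libraries biological replicates and do not say whether these were separate inductions, so p-values measure the spread between libraries. The variance between libraries of an arm was 2.03 to 3.73 times the variance of counting error. Deviations of libraries with the same number did not correlate (r from -0.035 to 0.0092), so numbers were not taken as pairs.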

Additional observations from a re-analysis of the deposited data

Results flagged for a closer look

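In SP100, 1 of the 4 shPTBP1 libraries stood far from the others (replicate 2, at 43.6 CPM against 30.1 to 32.3 CPM), with a gap of 0.84 of the range, above Dixon's 95% critical value for 4 samples. In MOV10-203, the share in shPTBP1 replicate 3 was 28.1% against 13.7% to 15.2% in the others, with a gap of 0.896 of the range. That library also had the fewest MOV10 counts that span the exon, 32, and its exon share of 46.9% was the lowest of the arm. Chance alone flags about 1 in 20 groups, and 76 groups were examined.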

How the results depend on the processing

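No member was called higher under any of the alternatives or in any of the 8 fits that left out 1 library. The members called lower numbered 1 to 3 in those fits, with IFITM3 in each of them and TRIM14 in 5, where it passed the filter. DESeq2 called 157 genes lower against 242 and limma-trend called 126 higher and 272 lower against 179 and 242. Without 1 library 77 to 168 genes were higher and 107 to 190 lower. Limma-trend scaled counts by library totals only, without TMM factors, and its median log2 fold change over all genes tested was -0.036. The median log2 fold change of the tested members was -0.092 with a mean of at least 50 counts (12 members) and -0.091 in limma-trend. It was -0.076 to 0.0098 without 1 library. The total MOV10 level had a log2 fold change of -0.20 to 0.017 in those fits. Other pathway genes called numbered 1 in limma-trend and 0 to 2 without 1 library, against 2. Around 0, signs turned without 1 library in XAF1 (-0.10 to 0.14), HERC5 (-0.13 to 0.054), ADAR (-0.29 to 0.12), IRF3 (-0.19 to 0.028), SP100 (-0.21 to 0.080) and IFIT3 (-0.028 to 0.14), and XAF1 was -0.022 in limma-trend. Limma diffSplice called 4 member transcripts (MOV10-202, MOV10-204, IFI27-211 and IFI27-213) and 154 in all against 61, a change of at least 20 points left 28, and leaving out 1 library gave 39 to 55, with MOV10-202 the member called in each of these fits. The MOV10 exon share differed by 43.6 to 47.4 points with other denominators, and by 42.0 to 46.3 points without 1 library. The cause of these changes was not tested. With the replicate number as a block, 3 members were lower (IFI6 added, adjusted p = 0.0433), MOV10-202 stayed called (edgeR diffSpliceDGE adjusted p = 1.17e-05), and 137 genes were higher and 186 lower. The filter on low counts left out 12 members, 11 with no more than 19 counts in any library and TRIM14 for its zeros.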
